A study of Arabidopsis thaliana with 18 samples.

Results

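Autophagy breaks down cytoplasm inside plant cells. A double membrane closes around proteins or organelles and delivers them to the vacuole, which returns amino acids and carbon to the cell. The ATG8 proteins are small ubiquitin-like proteins that sit on this membrane. The protease ATG4 trims them, and the E1-like ATG7 and the E2-like ATG3 then attach them to the lipid phosphatidylethanolamine. Lipid-bound ATG8 helps the membrane to grow and holds cargo receptors. In leaves the pathway is known for its use in darkness, carbon shortage and senescence.

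Described here are 4 autophagy genes, chosen by their symbols in the annotation of the array platform, out of 13356 genes with a named probe set. They are ATG8C (AT1G62040), ATG8E (AT2G45170) and ATG8F (AT4G16520), which encode 3 of the 9 Arabidopsis ATG8 proteins, and ATG3 (AT5G61500), which encodes the conjugating enzyme. Each had 1 probe set, so the rule to take the brightest probe set of a gene left nothing to choose, and all 4 were tested with no filter on low values.

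RNA came from petioles, the leaf stalks, of Arabidopsis thaliana Col-0, and 18 Affymetrix arrays fell into 6 groups of 3. In 1 experiment, plants of 37 d had stood alone (single plants) or in a dense canopy of 2066 plants per m2, both labelled as control light, and each biological replicate pooled petioles of 4 plants. In the other, single plants of 29 d received control light, low R:FR light, low blue light, or low R:FR light with low blue light (combined) for 24 h. Low R:FR, a low ratio of red to far-red light, acts through phytochromes, whereas cryptochromes and phototropins absorb blue light. By its title, the study asks about these 2 signals in competition at high density. Whether light replicates came from separate plants is not given in the labels, so the spread between them may be technical. In the main fit each probe set has 1 estimate of the spread, shared by all 18 arrays. The p-values of both experiments, the canopy included, therefore rest in part on that spread and measure only the spread between these samples. Levels below are RMA values on the log2 scale, with the SD over 3 arrays after the ±. Differences are log2 differences with the standard error (SE) from limma, and a gene is called where the p adjusted over all 22746 probe sets is under 0.05.

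Array medians lay between 1.59 and 1.65, and arrays of a group correlated at 0.9781 to 0.9939 over probe sets. The lowest of these correlations lay within control light. With its replicate 1, 2 or 3 left out, 472, 119 or 84 probe sets were called in low R:FR, against 197 with all arrays. Of 17 markers listed for the tissue and for other cell types, 6 had a named probe set. RCA and LHCB4.2, photosynthesis genes of green leaf tissue, had group means of 10.94 to 11.13 and of 9.31 to 9.86. The phloem gene SWEET11, the guard cell gene FMA and AT5G45880, which has no symbol in the tables, had group means of 1.25 to 1.34, 1.6 to 1.9 and 0.93 to 1.13. Tissue is measured in bulk, so fewer cells of a type and less RNA per cell cannot be told apart.

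**Figure D1:**
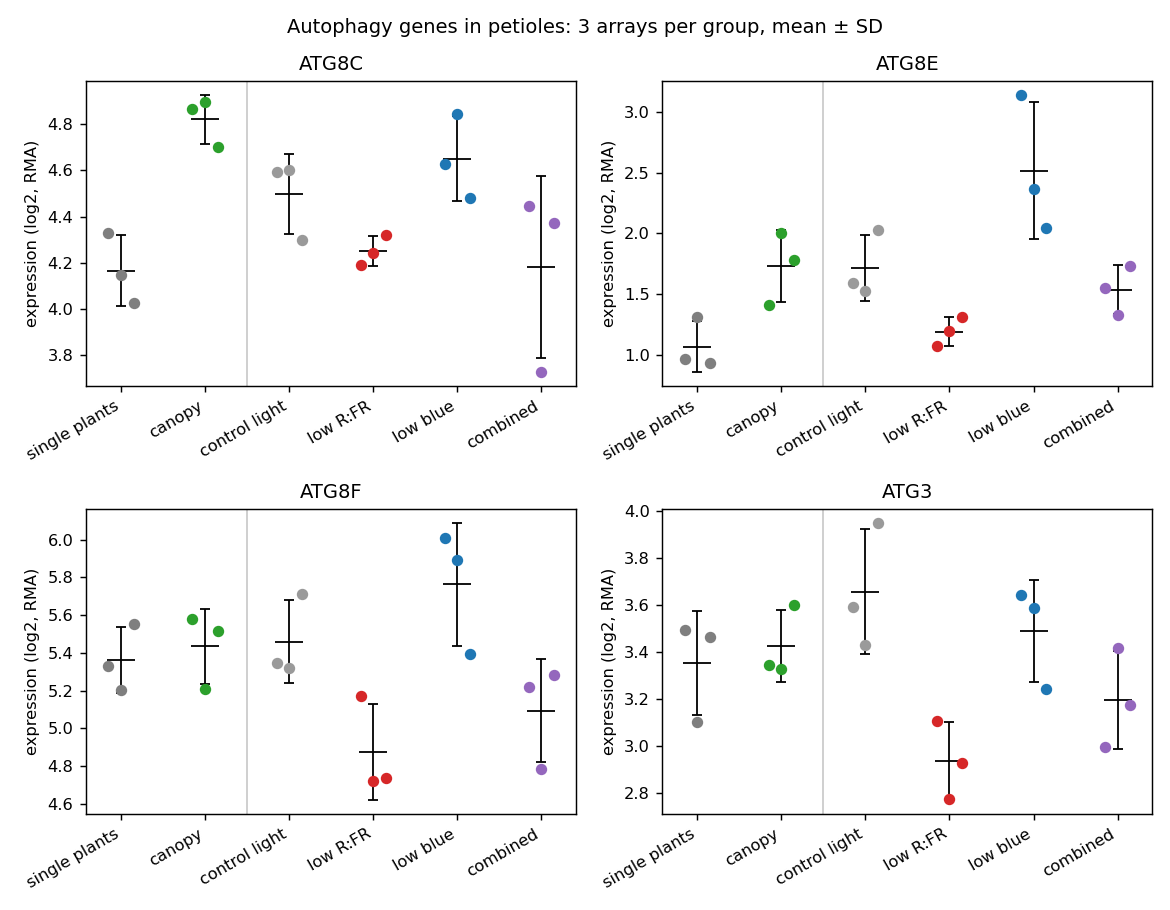
Expression of ATG8C, ATG8E, ATG8F and ATG3 (log2, RMA) in each of the 18 arrays, by group, with a bar at the mean and whiskers of 1 SD (n = 3). The vertical line parts the density experiment from the light experiment, and each panel has its own axis. The low R:FR arrays of all 4 genes lie below all low blue arrays, and the 3 canopy arrays of ATG8C lie above those of single plants.

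Of the 3 ATG8 members, ATG8C was the one called in the canopy. Single plants gave 4.33, 4.15 and 4.02, and canopy plants gave 4.87, 4.9 and 4.7. All 3 canopy arrays lay above all 3 of single plants, and these 2 groups held the highest and lowest means of ATG8C in the series. ATG8C rose 1.57-fold in the canopy, from 4.17 ± 0.15 to 4.82 ± 0.11 (SD, n = 3; log2 difference 0.65 ± 0.16 SE, limma adjusted p = 0.025). When each array of these groups was left out in turn, the call ended in 4 of 6 cases, with an adjusted p of 0.12 without single plants replicate 3, 0.1 without canopy replicate 2, 0.084 without canopy replicate 1 and 0.069 without single plants replicate 2.

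A root marker moved in the same direction in this comparison. PYK10, a β-glucosidase gene of roots, gave 0.69, 2.64 and 1.24 in single plants and 3.69, 3.1 and 2.85 in the canopy (difference 1.69 ± 0.45, limma adjusted p = 0.041). It was the 1 of the 6 named markers called there, and its part in the ATG8C difference was not tested.

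ATG8E had a difference of like size in the canopy but was not called. It read 0.97, 1.31 and 0.93 in single plants against 1.41, 2 and 1.79 in the canopy, again with no overlap (0.66 ± 0.23, limma adjusted p = 0.13). These values lie near the floor of the arrays, where 56.9% of probe sets have a mean under 2. RMA compresses differences there and no detection call is used here, so the size of every ATG8E difference is uncertain.

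ATG8F and ATG3 overlapped between canopy and single plants. ATG8F stood at 5.36 ± 0.18 in single plants and 5.43 ± 0.2 in the canopy (difference 0.07, 95% interval -0.32 to 0.46). For ATG3 the levels were 3.35 ± 0.22 and 3.43 ± 0.15 (difference 0.07, 95% interval -0.27 to 0.41). In all, 1 of the 4 genes was called in the canopy, where 4.26% of all probe sets were called. The groups did not overlap for 2 of the 4, against 19.3% of all probe sets.

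In low R:FR, ATG3 fell. Control light gave 3.59, 3.43 and 3.95 for this conjugating enzyme gene, and low R:FR gave 3.11, 2.78 and 2.93. Every low R:FR array lay below every control array, and control light replicate 3 was the highest of all 18. The mean went from 3.66 ± 0.27 to 2.94 ± 0.17 (SD, n = 3), a 1.65-fold lower level (log2 difference -0.72 ± 0.16, limma adjusted p = 0.045). This call is close to the threshold. The adjusted p was 0.23 without control light replicate 3, and 0.21, 0.13 and 0.063 without low R:FR replicates 2, 3 and 1. It was also above the threshold with the density arrays left out (0.074), with quantile normalization (0.055), with an intensity trend (0.056) and with a replicate block (0.066). Without control light replicates 1 and 3, a choice made after the data were seen that leaves 1 control array, the difference was -0.49.

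The 3 ATG8 members were not called in low R:FR. ATG8F read 5.34, 5.32 and 5.71 in control light and 5.17, 4.72 and 4.74 in low R:FR, without overlap (-0.58 ± 0.18, limma adjusted p = 0.19). ATG8E read 1.6, 1.53 and 2.03 in control light and 1.07, 1.19 and 1.31 in low R:FR, also without overlap (-0.52 ± 0.23, limma adjusted p = 0.37). ATG8C overlapped, with means of 4.5 ± 0.17 and 4.25 ± 0.06 (-0.25, 95% interval -0.58 to 0.09). So 1 of 4 genes was called in low R:FR, against 0.866% of all probe sets, and 3 of 4 had groups without overlap, against 16.2%.

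None of the 4 was called by limma in low blue, where 0.58% of all probe sets were called; at an unadjusted p under 0.05 the count was 1 of 4, ATG8E, against 9.61% of all probe sets. This gene read 3.14, 2.37 and 2.05 in low blue light, all above its control light arrays (0.8 ± 0.23, limma adjusted p = 0.15). Low blue replicate 1 was the highest ATG8E value of the series, and without it the difference was 0.49. ATG8F read 6.01, 5.89 and 5.39 in low blue, of which the last lay among the control values (0.31, 95% interval -0.08 to 0.69). ATG8C at 4.65 ± 0.18 (0.15, 95% interval -0.18 to 0.49) and ATG3 at 3.49 ± 0.22 (-0.17, 95% interval -0.5 to 0.17) overlapped control light as well. Groups did not overlap for 1 of 4 genes, against 11.6% of all probe sets.

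Under the combined treatment 0 of 4 genes were called by limma, against 2.26% of all probe sets, and 1 of 4, ATG3, had an unadjusted p under 0.05, against 12.6%. ATG3 read 3, 3.42 and 3.18, all below control light (-0.46 ± 0.16, limma adjusted p = 0.19). ATG8F read 5.22, 4.78 and 5.28, also all below (-0.36 ± 0.18, limma adjusted p = 0.44). ATG8C read 4.45, 3.73 and 4.37, of which replicate 2 was the lowest ATG8C value of the series. The mean difference of ATG8C from control light was -0.32 ± 0.16 (limma adjusted p = 0.44) and -0.09 without that array. ATG8E at 1.54 ± 0.2 overlapped control light (-0.18, 95% interval -0.66 to 0.3). Groups did not overlap for 2 of 4, against 15.5% of all probe sets.

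**Figure D2:**
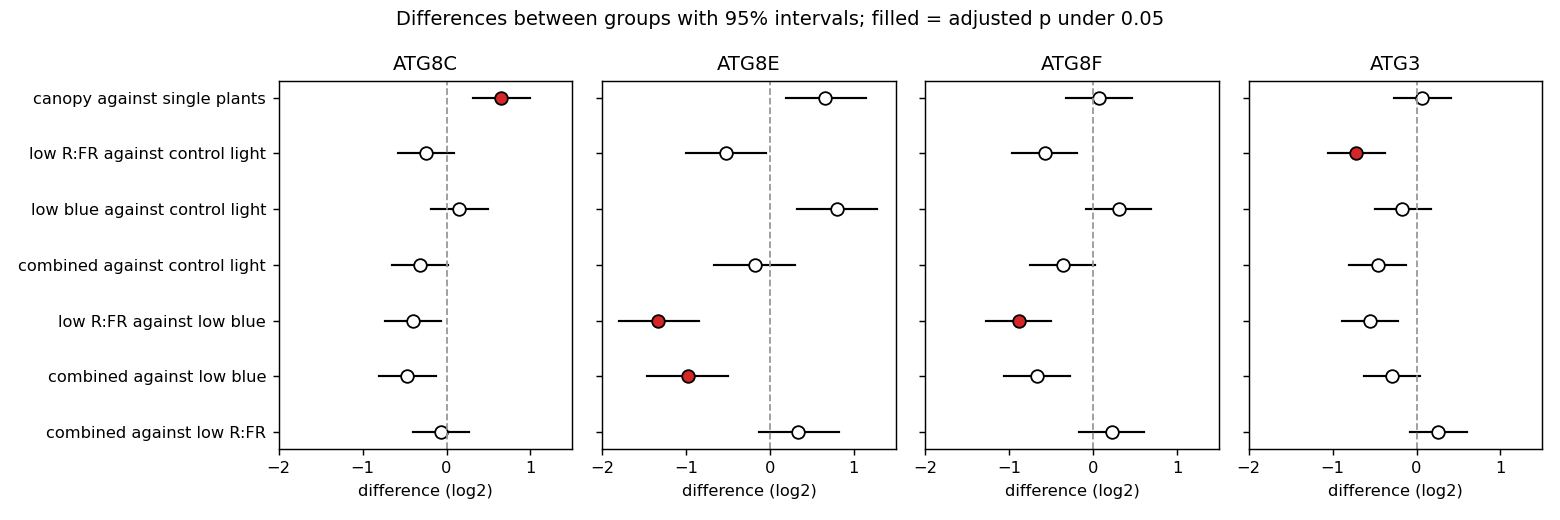
Log2 differences of the 4 genes in 7 comparisons (points) with 95% intervals from limma (lines); filled points have an adjusted p under 0.05. The intervals of ATG8E and ATG8F for low R:FR against low blue run from -1.8 to -0.85 and from -1.28 to -0.5, and all 4 intervals of that comparison lie below 0.

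In the direct comparison of the single light treatments, ATG8E and ATG8F were lower in low R:FR. ATG8E was 2.51-fold lower in low R:FR than in low blue, at 1.19 ± 0.12 against 2.52 ± 0.56 (SD, n = 3; log2 difference -1.33 ± 0.23, limma adjusted p = 0.002). ATG8F was 1.85-fold lower, at 4.88 ± 0.25 against 5.76 ± 0.33 (-0.89 ± 0.18, limma adjusted p = 0.009). The call of ATG8E held in 6 of 6 leave-outs (highest adjusted p = 0.013), and that of ATG8F in 5 of 6, ending without low R:FR replicate 2 (0.054). ATG3 at -0.55 ± 0.16 (limma adjusted p = 0.063) and ATG8C at -0.4 ± 0.16 (0.2) were not called. ATG3 was called without low blue replicate 3 (0.033), with array weights (0.03) and with dim probe sets left out (0.04).

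So 2 of 4 genes were called in this comparison, against 4.39% of all probe sets. The low R:FR arrays all lay below the low blue arrays for 4 of 4 genes, against 11.6% of all probe sets in that direction. LHCB4.2, an antenna gene of green tissue, was lower in the same comparison (-0.55 ± 0.1, limma adjusted p = 0.0046), the 1 of the 6 named markers called, while RCA was not (0.19 ± 0.09, limma adjusted p = 0.29). The part of green tissue in the ATG8E and ATG8F differences was not tested.

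Adding low R:FR to low blue gave 1 call, ATG8E, against 1.28% of all probe sets. It read 1.55, 1.33 and 1.73 in the combined treatment, all below low blue, a 1.98-fold lower mean (-0.98 ± 0.23, limma adjusted p = 0.042). The call ended in 5 of 6 leave-outs, with an adjusted p of 0.19, 0.11 and 0.064 without combined replicates 2, 1 and 3 and of 0.14 and 0.087 without low blue replicates 1 and 2. It also ended with the density arrays left out (0.077) and with a replicate block (0.05, just over the threshold). ATG8F (-0.67 ± 0.18, limma adjusted p = 0.099) and ATG8C (-0.47 ± 0.16, 0.22) lay wholly below low blue too but were not called. ATG8F was called without low blue replicate 3 (0.028), and the ATG8C difference was -0.24 without combined replicate 2. ATG3 overlapped (-0.29, 95% interval -0.63 to 0.04). The groups did not overlap for 3 of 4, against 14.6% of all probe sets.

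Low blue added to low R:FR gave 0 calls by limma among the 4 genes, against 0.448% of all probe sets, and 0 at an unadjusted p under 0.05, against 8.04%. The differences ran from -0.07 ± 0.16 for ATG8C to 0.34 ± 0.23 for ATG8E, with ATG8F at 0.22 ± 0.18 and ATG3 at 0.26 ± 0.16. For ATG8E all combined arrays lay above the low R:FR arrays, the 1 of 4 without overlap, against 14.6% of all probe sets.

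The interaction, which measures how far the combined treatment departs from the sum of the single light effects, was not called by limma for any of the 4 genes, nor had any an unadjusted p under 0.05. Over all probe sets 0 were called, 811 had an unadjusted p under 0.05, and 1 was called with an intensity trend. The largest of the 4 interactions were -0.46 for ATG8E (95% interval -1.13 to 0.22) and 0.43 for ATG3 (95% interval -0.05 to 0.9). Without low blue replicate 1 that of ATG8E was -0.15, and without control light replicate 3 that of ATG3 was 0.28. ATG8C stood at -0.22 (95% interval -0.7 to 0.25) and ATG8F at -0.09 (95% interval -0.64 to 0.46). These intervals are wide beside the single effects.

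The canopy effect was tested against each light effect, with which it shares no arrays. The effects compared come from different experiments, with plants of different age. Age and experiment therefore cannot be told apart from the kind of treatment in these differences. ATG8C had a canopy effect above its low R:FR effect by 0.9 ± 0.22 (limma adjusted p = 0.048), the 1 of 4 genes called, against 2.08% of all probe sets. This call ended in 10 of 12 leave-outs, with the highest adjusted p, 0.12, without single plants replicate 3, and with an intensity trend (0.061) or a replicate block (0.073). It held without single plants replicate 1 (0.047) and without control light replicate 3 (0.04). ATG8E differed by 1.19 ± 0.32 (0.068), ATG3 by 0.79 ± 0.23 (0.085) and ATG8F by 0.65 ± 0.26 (0.26), and the first of these was called with an intensity trend (0.039), with array weights (0.036) and without canopy replicate 1 (0.048).

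Against the combined effect, 0 of 4 were called by limma, against 0.8% of all probe sets, and 3 of 4 had an unadjusted p under 0.05, against 10.3%. The canopy effect of ATG8C was higher by 0.97 ± 0.22 (limma adjusted p = 0.055). Its adjusted p was 0.042 with quantile normalization, 0.026 with array weights, 0.038 with dim probe sets left out and 0.041 without combined replicate 1. Against the low blue effect 0 of 4 were called by limma, against 0.114% of all probe sets. The count at an unadjusted p under 0.05 was 1 of 4, ATG8C (0.5 ± 0.22, limma adjusted p = 0.62), against 7.51%. The ATG8E effects of canopy and low blue lay 0.14 apart (-0.14, 95% interval -0.81 to 0.54), so these arrays do not show whether they differ.

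**Figure D3:**
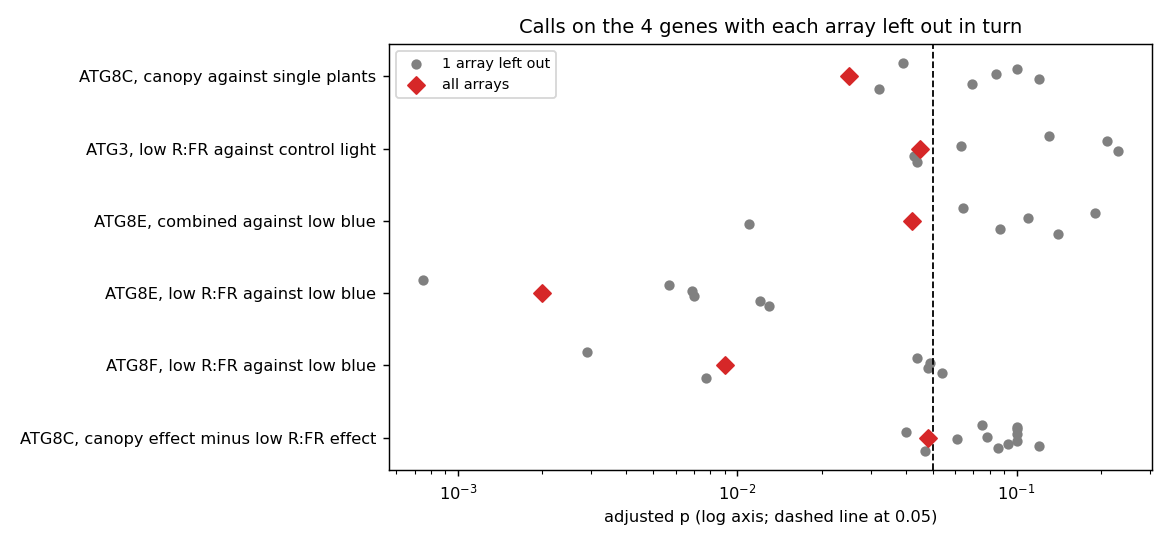
Adjusted p (log axis) for the 6 calls on the 4 genes with all arrays (diamonds) and with each array of the groups compared left out in turn (grey points); the dashed line is at 0.05. Every grey point of ATG8E in low R:FR against low blue lies at or below 0.013, while the other 5 calls have points on both sides of the line.

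Across all 6 groups the 4 genes had different orders. ATG8C ran from canopy (4.82) through low blue (4.65), control light (4.5), low R:FR (4.25) and combined (4.18) to single plants (4.17), and all 5 pairs of neighbours overlapped. ATG8E was highest in low blue (2.52), then canopy (1.73), control light (1.72), combined (1.54), low R:FR (1.19) and single plants (1.07). Its arrays separated low blue from canopy and combined from low R:FR, and the other 3 pairs of neighbours overlapped.

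ATG8F ran from low blue (5.76) through control light (5.46), canopy (5.43), single plants (5.36) and combined (5.09) to low R:FR (4.88). ATG3 ran from control light (3.66) through low blue (3.49), canopy (3.43), single plants (3.35) and combined (3.2) to low R:FR (2.94). For both, all 5 pairs of neighbours overlapped. Low R:FR thus held the lowest mean of ATG8F and ATG3, and single plants that of ATG8C and ATG8E.

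The untreated groups were not called different for any of the 4 genes. Mean levels of single plants at 37 d lay below those of control light plants at 29 d by 0.65 ± 0.23 for ATG8E, by 0.33 ± 0.16 for ATG8C, by 0.3 ± 0.16 for ATG3 and by 0.1 ± 0.18 for ATG8F. The limma adjusted p ran from 0.28 to 0.93, with 0.866% of all probe sets called, and 1 of 4 had an unadjusted p under 0.05, against 9.76%. The ATG3 difference was -0.16 without control light replicate 3 and -0.18 without single plants replicate 2. Groups did not overlap for 1 of 4 genes, ATG8E, against 13.6% of all probe sets. Age and experiment cannot be told apart in this comparison.

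Within groups the genes shared the ranks of the arrays in part. In low blue, replicate 3 was the lowest of the 3 arrays for all 4 genes. In the combined treatment, replicate 2 was the lowest for ATG8C, ATG8E and ATG8F but the highest for ATG3. In control light, replicate 3 was the highest for ATG8E, ATG8F and ATG3 but the lowest for ATG8C.

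The other 6 ATG8 genes, which make up the rest of the family, all had a named probe set. ATG8A, ATG8B, ATG8D and ATG8G encode proteins of the same clade as the 3 members, with residues beyond the glycine to which the lipid is joined. ATG8H and ATG8I (named APG8H in the gene table) encode proteins that end at this glycine. Signal from one family member on the probes of another was not tested. ATG8B, ATG8D, ATG8G and ATG8H had means of 2.11, 1.81, 1.69 and 2.38 over all arrays. Like ATG8E they are dim, so the sizes of their differences are uncertain too.

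Of the 9 ATG8 genes, 1 was called in the canopy, ATG8C, against 4.26% of all probe sets. The differences of all 9 were above 0, against 48.7% of all probe sets, with a median of 0.26 against 0. ATG8F or ATG8H, or both, turned below 0 without single plants replicate 1 or 2 or canopy replicate 1. The 4 ATG8 genes with a mean of at least 3 (ATG8A, ATG8C, ATG8F and ATG8I) were all above 0, with a median of 0.21. After ATG8E and ATG8C, ATG8B had the largest difference (0.48 ± 0.15, limma adjusted p = 0.082). It stood at 1.94 ± 0.05 in single plants and 2.42 ± 0.29 in the canopy, without overlap. ATG8D at 0.33 ± 0.17 and ATG8I at 0.19 ± 0.16 were without overlap too, against 19.3% of all probe sets, while ATG8A, ATG8G and ATG8H overlapped. The clade without the terminal extension had canopy differences of 0.05 for ATG8H and 0.19 for ATG8I. A shared sign of all 9 also appeared between the untreated groups. Single plants at 37 d lay below control light plants at 29 d for all 9 genes, against 51.7% of all probe sets. The median there was -0.18 against -0.01, and limma called 0 of 9, against 0.866% of all probe sets.

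In low R:FR against control light, 0 of 9 ATG8 genes were called by limma, against 0.866% of all probe sets, and 5 of 9 had an unadjusted p under 0.05, against 11.8%. All 9 differences were below 0, against 53.1% of all probe sets, and ATG8G turned above 0 without low R:FR replicate 3. Their median was -0.34 against -0.01 over all probe sets, and -0.21 without control light replicate 2. The 4 ATG8 genes with a mean of at least 3 were all below 0, with a median of -0.29. ATG8D (-0.39 ± 0.17), ATG8H (-0.39 ± 0.15) and ATG8I (-0.34 ± 0.16) had adjusted p of 0.4, 0.31 and 0.42.

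In low blue 0 of 9 were called by limma, against 0.58% of all probe sets, and 1 of 9 had an unadjusted p under 0.05, against 9.61%. Above 0 were 8 of 9 differences, against 50.3% of all probe sets; ATG8D was the exception at -0.14 ± 0.17, and 7 of 9 were above 0 with array weights and 6 of 9 without control light replicate 1. The median was 0.15, and 0.24 without low blue replicate 3. In the combined treatment 0 of 9 were called by limma, against 2.26% of all probe sets, and 2 of 9 had an unadjusted p under 0.05, against 12.6%. All 9 were below 0, against 51.2% of all probe sets, with a median of -0.3, which was -0.09 without combined replicate 2. ATG8G turned above 0 without combined replicate 1 or 2, and ATG8E without control light replicates 1 and 3. Of the 4 ATG8 genes with a mean of at least 3, all were above 0 in low blue (median 0.16). All 4 were below 0 in the combined treatment (median -0.31). The 3 comparisons with control light share its arrays.

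Low R:FR and low blue, set against each other, share no arrays. Of the 9 ATG8 genes, ATG8E and ATG8F were called lower in low R:FR, against 2.13% of all probe sets, 6 of 9 had an unadjusted p under 0.05, against 16.1%, and all 9 differences were below 0, against 53.7% of all probe sets. The median was -0.4 against -0.01. The 9 signs were the same with quantile normalization, with array weights and without any 1 array. The 4 ATG8 genes with a mean of at least 3 had a median of -0.41. Among the other 6, ATG8H (-0.49 ± 0.15, limma adjusted p = 0.086), ATG8A (-0.41 ± 0.15, 0.14) and ATG8B (-0.26 ± 0.15, 0.42) had no overlap between groups. Over all probe sets, 11.6% had every low R:FR array below every low blue array. Family members measured on the same arrays are not independent of each other.

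**Figure D4:**
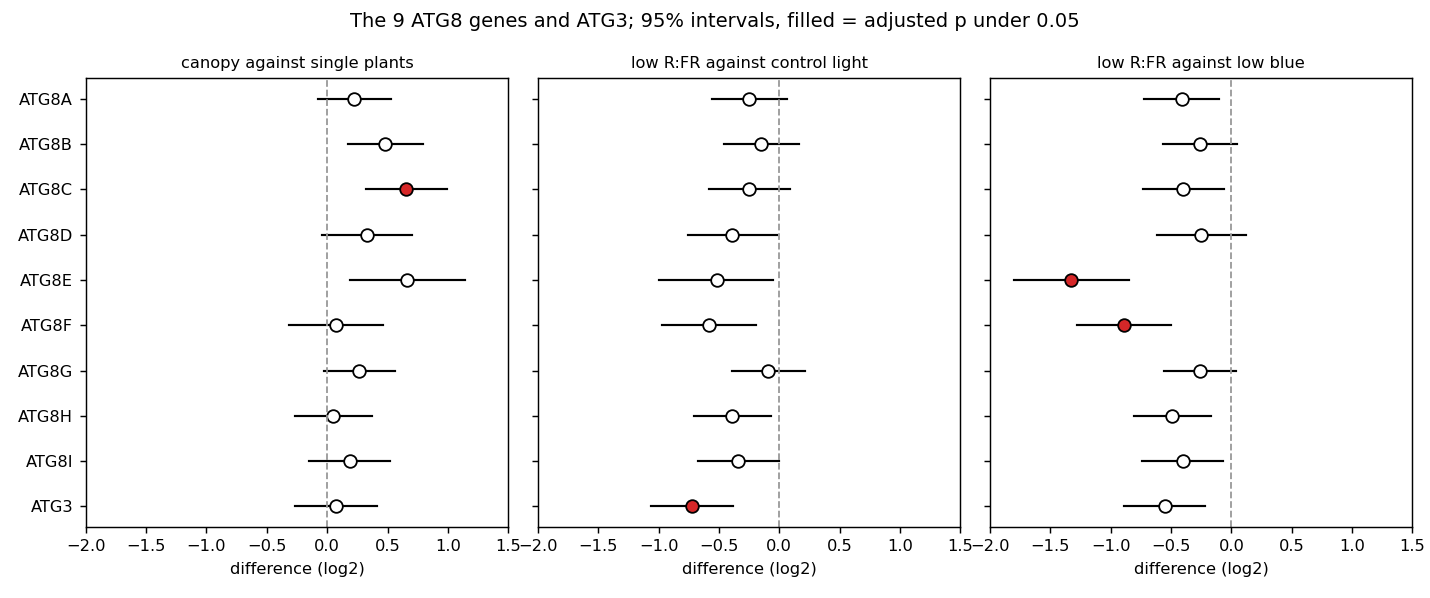
Log2 differences with 95% intervals (limma) for the 9 ATG8 genes and ATG3 in 3 comparisons; filled points have an adjusted p under 0.05. All 9 ATG8 points lie above 0 in the canopy and below 0 in the other comparisons, with ATG8C filled in the canopy, ATG3 in low R:FR against control light, and ATG8E and ATG8F in low R:FR against low blue.

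A wider list of 50 autophagy genes and upstream kinases, matched by locus, had 21 with a named probe set, the 4 members included. The other 17 include the 6 further ATG8 genes, so their counts and medians are not separate from those of the family. Among the other 17, limma called 0 in the canopy, in low R:FR, in low blue and in the combined treatment, against 4.26%, 0.866%, 0.58% and 2.26% of all probe sets. At an unadjusted p under 0.05 there were 1, 4, 1 and 3 of 17, against 14.2%, 11.8%, 9.61% and 12.6%. These were ATG8B in the canopy and AT2G37840 in low blue. In low R:FR they were ATG8D, ATG8H, ATG8I and AT3G61960, and in the combined treatment ATG8D, ATG8H and AT3G61960. The median differences of the 17 were 0.05, -0.15, 0.11 and -0.16, against 0, -0.01, 0 and 0 over all probe sets. In low R:FR against low blue, limma called 0 of 17, against 4.39%, and the median was -0.25. There 5 had an unadjusted p under 0.05, against 16.1%: ATG8A, ATG8H, ATG8I, AT3G61960 and AT2G37840.

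Outside the ATG8 family and ATG3, ATG101, which encodes a subunit of the kinase complex that starts autophagy, had its largest difference from a control in low blue (0.24 ± 0.15, limma adjusted p = 0.68) at a level of 1.96 ± 0.27. RAPTOR1, a subunit of the TOR kinase complex that holds autophagy down, stood at -0.19 ± 0.18 in low R:FR (0.76), its largest difference from a control. The other 9 loci have no autophagy symbol in the tables used. The largest difference from a control among them was that of AT3G61960 in the combined treatment (-0.44 ± 0.19, limma adjusted p = 0.33), and AT5G50230 and AT2G32760 reached -0.19 ± 0.16 (combined, 0.73) and -0.26 ± 0.14 (canopy, 0.45).

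The genes most like each member were sought by Pearson correlation over the 18 arrays, among 3518 other genes (3519 for ATG8E) with a mean of at least 3. The arrays share groups, so these values describe the profiles and carry no test. ATG8C was closest to AT1G01490 (r = 0.887), AT2G05540 (0.84) and ATG8A (0.814), another ATG8 gene. For ATG8E the list was AT1G01240 (0.905), AT1G56220 (0.87) and AT5G25280 (0.868), and for ATG8F it was AT2G31800 (0.877), AT1G67865 (0.876) and AT1G69510 (0.866). ATG3 was closest to AT2G39750 (0.823), AT4G00780 (0.812) and AT4G15010 (0.793). No gene appeared for more than 1 member.

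The group means of these 12 genes matched the extremes of their member in part, which their choice by correlation over the same arrays favours. AT1G01490 and AT2G05540, like ATG8C, were highest in the canopy (6.64 and 5.45) and lowest in single plants (6 and 3.46), whereas ATG8A was highest in low blue (4.86) and lowest in the combined treatment (4.4). AT1G01240, AT1G56220 and AT5G25280, like ATG8E, were highest in low blue (4.14, 7.74 and 5.35) and lowest in single plants (2.49, 5.49 and 2.94). Of the genes nearest ATG8F, AT2G31800 was highest in low blue (3.88) and lowest in low R:FR (2.81), as ATG8F was. AT1G67865 was highest in control light (7.51) and lowest in the combined treatment (6.76), and AT1G69510 was highest in low blue (6.64) and lowest in the combined treatment (6.21). AT4G00780 and AT4G15010, like ATG3, were highest in control light (5.05 and 3.29) and lowest in low R:FR (3.64 and 2.69), and AT2G39750 was highest in low blue (4.91) and lowest in low R:FR (4.58). With group means removed, the correlations with ATG8F were 0.836, 0.89 and 0.849, and those of the other members' genes ran from 0.377 to 0.73.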

How the data were processed

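The authors deposited log2 expression values of 22810 probe sets on 18 Affymetrix arrays, an RMA summary per the submitters' processing notes. No source used here names the software or says which arrays were processed jointly. No arrays held identical values. The bacterial control transcripts bioC, bioD and cre lay 2.01, 4.19 and 6.46 above bioB, steps checked for a log2 scale. Arrays were grouped by their titles. The number of arrays limits the precision.

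After 64 control probe sets were set aside, 22746 were tested. Probe sets of 1 gene (13513) were named from the platform annotation, with symbols and loci from the TAIR10.1 gene table. A gene's probe set with the highest mean was used. One linear model (limma 3.58.1, R 4.3.3) covered the 18 arrays, with 6 group means as its terms, 12 residual degrees of freedom and 4.41 prior ones from eBayes. The fit was tested on simulated data. Two-sided p-values received the Benjamini-Hochberg adjustment over all probe sets in each of the 12 comparisons.

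The members, the list of 50 pathway genes and the comparisons were chosen with earlier results of these data known. Named were the 4 members, the called genes of that list or the one with the largest difference of a role, and the 3 genes most correlated with each member. The genes of the list described further were chosen after their values were seen. Replicate numbers were not taken as pairs. Alternatives were a replicate block, an intensity trend, quantile normalization, array weights, a filter on probe sets with a mean under 3, a fit of each experiment alone, and each array left out.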

Additional observations from a re-analysis of the deposited data

Results flagged for a closer look

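Effects that differed from each other by the test of that difference stood out for 3 of the autophagy results. The canopy effect of ATG8C exceeded its low R:FR effect by 0.9 ± 0.22 on the log2 scale (limma adjusted p = 0.048). Those effects come from different experiments and plant ages, which cannot be told apart from the treatments. The low R:FR and low blue effects share the control light arrays, so their difference is the direct comparison of these treatments. It was -1.33 ± 0.23 for ATG8E (limma adjusted p = 0.002) and -0.89 ± 0.18 for ATG8F (0.009).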

How the results depend on the processing

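Over the 4 genes and 12 comparisons, alternatives that kept all arrays left direction and call as they were in 215 cases, ended a call in 6 and gave one in 7. Fits of 1 experiment alone left both as they were in 30 cases and ended a call in 2. Leaving out 1 array ended a call in 24 cases, gave one in 4, turned the sign of an uncalled difference in 12, and changed neither in 344. The calls of ATG8C in the canopy and of ATG8E and ATG8F in low R:FR against low blue held under all of these that gave a value, leave-outs aside.

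ATG3 in low R:FR stood at -0.72 with a replicate block, an intensity trend or a fit of the light arrays alone (adjusted p = 0.066, 0.056 and 0.074) and at -0.68 after quantile normalization (0.055). ATG8E, combined against low blue, stayed at -0.98 with the block (0.05) or in the light arrays alone (0.077). ATG8C, canopy minus low R:FR effect, stayed at 0.9 with the block (0.073) or the trend (0.061). Calls arose for ATG3, low R:FR against low blue, at -0.59 with array weights (0.03) and -0.55 without dim probe sets (0.04); for ATG8E, canopy minus low R:FR effect, at 1.19 with the trend (0.039) and 1.16 with weights (0.036); and for ATG8C, canopy minus combined effect, at 0.97 after quantile normalization (0.042), 1.02 with weights (0.026) and 0.97 without dim probe sets (0.038). The labels state no pairing, so replicate numbers were not read as pairs. Deviations of same-numbered arrays correlated from 0.06 to 0.33 in the density and from -0.4 to 0.33 in the light experiment. The replicate block changed no other call on the 4 genes. Leaving out control light replicates 1 and 3, chosen after the data were seen, leaves 1 array in that group. ATG3 then stood at -0.49 in low R:FR and 0.06 in low blue, ATG8E at 0.01 in combined, ATG8F at 0.04 for single plants against control light, and ATG8C at 1 for canopy minus low R:FR effect. The cause was not tested in any of these, except that fewer arrays enter the last and the light-only fits.

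With 1 array left out, ATG8C in the canopy ran from 0.58 to 0.74, ATG3 in low R:FR from -0.83 to -0.57, and ATG8F in low R:FR against low blue from -1.07 to -0.77, with ATG3 there from -0.68 to -0.47. Combined against low blue gave -1.22 to -0.67 for ATG8E and -0.86 to -0.51 for ATG8F. Canopy minus low R:FR effects ran from 0.83 to 1 for ATG8C and 1.03 to 1.35 for ATG8E, and canopy minus combined from 0.74 to 1.1 for ATG8C. Signs turned in the canopy for ATG8F (-0.01 to 0.19) and ATG3 (-0.06 to 0.14), in combined against low R:FR for ATG8C (-0.2 to 0.16), in the interaction for ATG8C (-0.35 to 0) and ATG8F (-0.27 to 0.07), in canopy minus low blue for ATG8E (-0.37 to 0.17) and in single plants against control light for ATG8F (-0.19 to 0.03).

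Of the 21 pathway genes, 1 was called in the canopy, against 4.26% of all probe sets, and 1 in low R:FR, against 0.866%. The canopy count was 2 with quantile normalization or array weights, and 0 without single plants replicate 2 or 3 or canopy replicate 2. That of low R:FR was 0 with the block, the trend, quantile normalization or the light arrays alone. It was also 0 without control light replicate 3 or without any 1 low R:FR array. Over all probe sets, the 197 calls of low R:FR became 457 with array weights and 80 to 472 with 1 array left out. Low blue had 132 calls and combined 514 with all arrays. With 1 array left out, the canopy had 554 to 1083, low blue 30 to 154 and combined 276 to 681. Dim probe sets include ATG8E, so it has no value under that filter. No member had another probe set, and differences between canopy and light effects have no fit within 1 experiment. ATG8E, near the floor, is the member whose signal limits its sizes most.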
